A study of Rattus norvegicus with 12 samples.

Results

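The response to rapamycin was compared between 2 rat fibroblast lines that differ at the c-myc gene, and what is described here is the difference between their responses. For each probe this difference was the rapamycin change in HO15.19 cells minus the rapamycin change in TGR-1 cells, so a negative value means that the change in HO15.19 cells lay below that in TGR-1 cells. TGR-1 cells carry both copies of c-myc (c-myc+/+). They are a subclone of the immortalised line Rat-1 that lacks the purine salvage enzyme HPRT, and they doubled every 18 to 21.5 hr. HO15.19 cells (c-myc-/-) were made from TGR-1 by homologous recombination and doubled every 45 to 60 hr. Each line was exposed for 24 hr to 50 nM rapamycin or to the vehicle DMSO (0 nM rapamycin, called control here), with 3 arrays in each of 4 groups. Each genotype was represented by 1 line, so genotype, line and growth rate cannot be told apart. Illumina RatRef-12 arrays, 12 in number, read the RNA. Of 22523 probes 10852 were tested for a difference, namely those that 3 or more of the arrays detected (detection p under 0.05).

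Rapamycin binds the immunophilin FKBP12, and the pair inhibits mTOR complex 1, a kinase that couples nutrients and growth factors to protein synthesis, ribosome production and the cell cycle. c-Myc is a transcription factor that binds DNA with its partner Max and drives many of the same growth genes. Control of translation by mTOR also affects the level of c-Myc protein. In fibroblasts both regulators are known for their part in the entry into S phase, when DNA is copied, and hence in the supply of cells that reach mitosis. Measuring the same drug in cells with and without c-myc addresses whether rapamycin needs c-Myc to change gene expression.

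The Myc probe was read first, as a check on the labels. Its log2 normalised signal was 9.07, 8.97 and 9.04 on the TGR-1 control arrays and 9.53, 9.53 and 9.76 on the TGR-1 rapamycin arrays, against 7.69, 7.94 and 7.88 on the HO15.19 control arrays and 8.19, 7.95 and 8.10 on the HO15.19 rapamycin arrays. All 6 HO15.19 arrays lay below all 6 TGR-1 arrays, and the probe was detected on all 12. Whether the probe lies within the deleted part of c-myc was not stated in the sources read here. Myc rose with rapamycin in TGR-1 cells by 0.58 on the log2 scale and had a value of 0.25 in HO15.19 cells, a difference of −0.34 (SE 0.16) that did not pass the test (adjusted p = 0.524 from limma). Of 12 listed fibroblast markers 4 had a named, tested probe, and the collagen genes Col1a1 and Col3a1 and fibronectin (Fn1) had group means of 9.87 to 13.67, whereas lumican (Lum) was detected in HO15.19 cells only. Mean bead signals per array were 254.8 to 405.4, 9605 to 10472 probes were detected per array, and arrays of a group correlated at r of at least 0.9886. The labels do not name separate cultures, whereas the study's methods call the 3 RNA preparations of a group biological replicates.

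The change in response to rapamycin differed between the lines for 12 probes, 0.111% of those tested, at thresholds of 0.05 on the p adjusted by Benjamini and Hochberg, 0.01 on the unadjusted p and 1.2-fold on the size. For 9 of the 12 (0.0829% of tested probes) the change in HO15.19 cells lay below that in TGR-1 cells, and for 3 (0.0276%) it lay above. Named genes, which the study's lists single out as changed, had a called difference in 0.702% of cases. The 9 were 6 genes of chromosomes and DNA copying (H2ax, Ncapd2, Kif20a, Incenp, Mcm10 and Pold1), the stress gene Chac1, the chemokine gene Ccl2 and a gene similar to a folate enzyme of mitochondria. The 3 were Kprp, Acsm1 and a gene similar to a heat shock protein. Tested within each line, 8 of the 12 had changed in HO15.19 cells only, 1 in TGR-1 cells only and 3 in both, and for 9 the changes had opposite signs. Of these 9 only H2ax and Ccl2 passed in both lines, in HO15.19 cells at an adjusted p of 0.0489 and 0.0456 from limma. For the rest of the 9 the TGR-1 value did not pass. Of all tested probes 3.96% passed in TGR-1 (2.52% rose, 1.45% fell) and 5.14% in HO15.19 cells (2.51% rose, 2.64% fell). The number of called differences depended on single arrays. With replicate 1, 2 or 3 left out it was 2, 7 or 4 for the TGR-1 control arrays, 4, 1 or 0 for the TGR-1 rapamycin arrays, 3, 5 or 3 for the HO15.19 control arrays and 10, 4 or 8 for the HO15.19 rapamycin arrays, and in the fit with 0 called 997 probes had an unadjusted p under 0.05 in limma. Of the 12 fits that each left out 1 array, H2ax was called in 11, Kprp in 10, LOC684490 in 9, Acsm1 in 5, Ncapd2 in 4 and Ccl2 in 2, and Kif20a, Incenp, Mcm10, Pold1, Chac1 and LOC306428 in 1 each. Median centring of the arrays, used instead of quantile normalization, gave 0 (295 at an unadjusted p under 0.05).

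**Figure D1:**
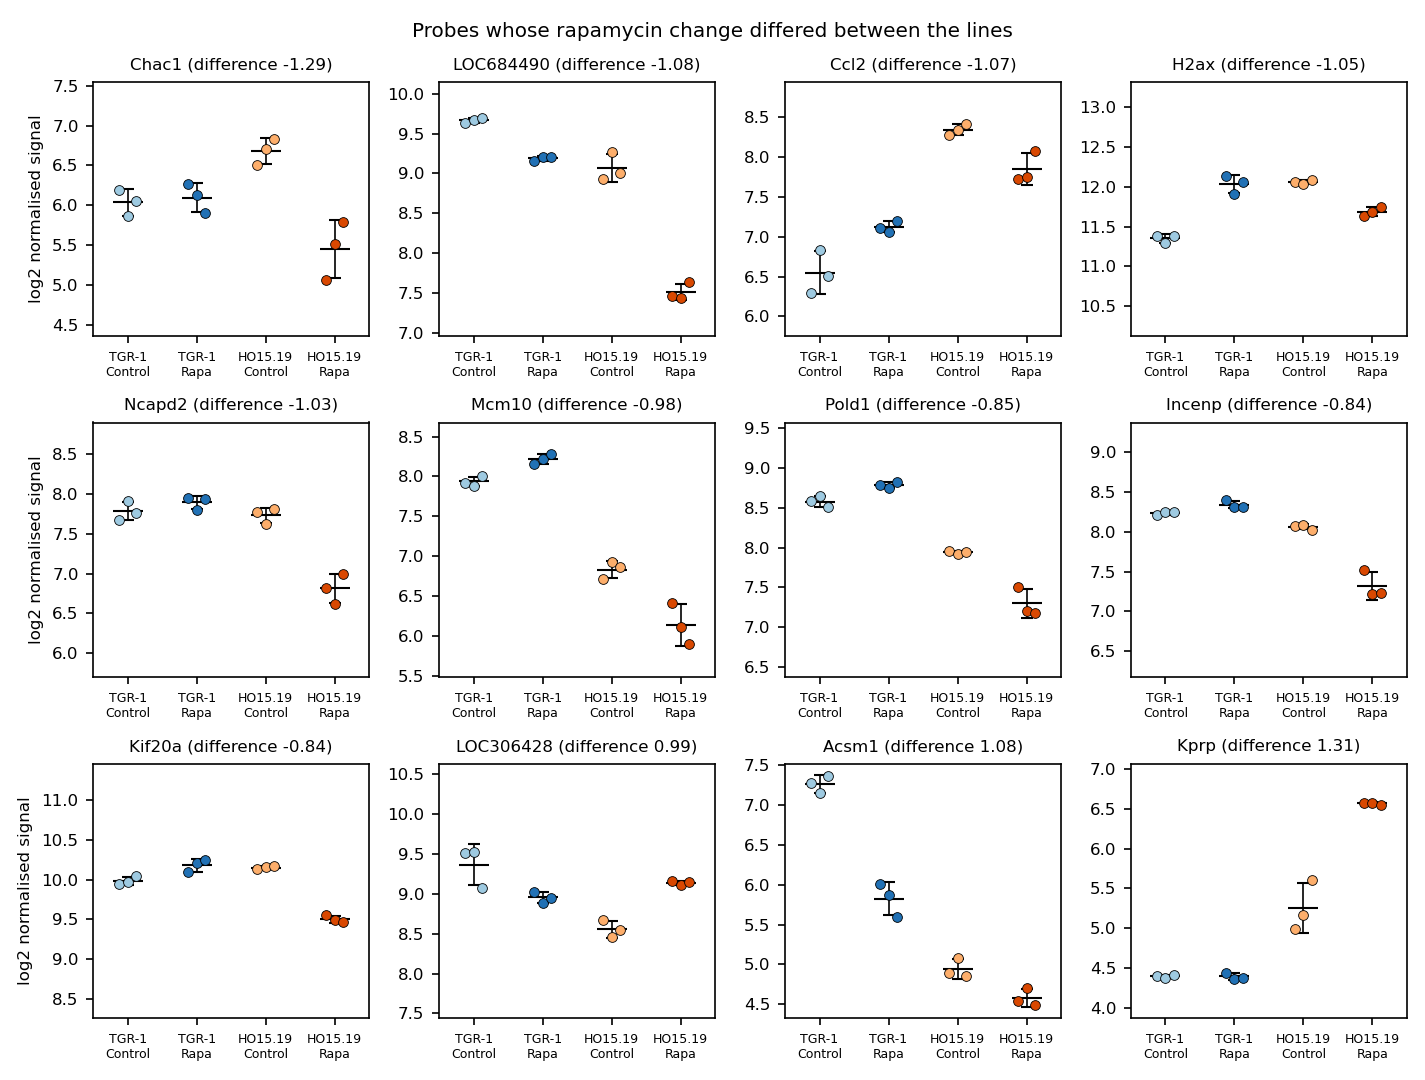
Log2 normalised signal (y axis) of the 12 probes whose rapamycin change differed between the lines, with 1 point per array, 3 arrays in each of the 4 groups on the x axis, and bars for the mean ± SD. For Ncapd2, Kif20a, Incenp and Pold1 the HO15.19 rapamycin arrays lie below the arrays of the other 3 groups, whereas Kprp is highest on those arrays.

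H2ax encodes the histone H2A.X, which is phosphorylated around DNA breaks. It read 11.39, 11.29 and 11.39 on the TGR-1 control arrays and 12.14, 11.91 and 12.06 on the TGR-1 rapamycin arrays, against 12.05, 12.03 and 12.08 on the HO15.19 control arrays and 11.64, 11.68 and 11.74 on the HO15.19 rapamycin arrays. The order of the groups was thus opposite in the lines, with no overlap in either. H2ax rose in TGR-1 (0.68) and fell in HO15.19 cells (−0.37), a difference of −1.05 (SE 0.15, adjusted p = 0.0105 from limma). The array names this probe as a predicted gene similar to histone H2A.x, and the current symbol comes from its Entrez number.

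Ncapd2 is a subunit of condensin, the complex that compacts chromosomes for mitosis. Its signal was 7.68, 7.91 and 7.76 on the TGR-1 control arrays, 7.94, 7.80 and 7.93 with rapamycin, 7.77, 7.62 and 7.80 on the HO15.19 control arrays, and 6.82, 6.62 and 6.99 with rapamycin. Only the HO15.19 rapamycin arrays were low, and the other 9 arrays overlapped. Ncapd2 fell in HO15.19 (−0.92) and stood at 0.11 in TGR-1 (difference −1.03, SE 0.17, adjusted p = 0.0283 from limma).

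Kif20a is a kinesin of the central spindle and Incenp the scaffold of the chromosomal passenger complex that carries Aurora B, and both act in chromosome segregation and cytokinesis. Kif20a read 9.95, 9.96 and 10.04, then 10.09, 10.20 and 10.24 with rapamycin in TGR-1 cells, and 10.13, 10.15 and 10.17, then 9.55, 9.49 and 9.46 with rapamycin in HO15.19 cells. Incenp read 8.21, 8.25 and 8.25, then 8.39, 8.31 and 8.31 in TGR-1 cells, and 8.08, 8.08 and 8.02, then 7.52, 7.22 and 7.23 in HO15.19 cells. For both genes the TGR-1 rapamycin arrays lay above every control array of that line, while the HO15.19 rapamycin arrays lay below every other array. Both fell in HO15.19 (Kif20a −0.65, Incenp −0.74) and neither passed in TGR-1 (0.19 and 0.11). The differences were −0.84 (SE 0.14, adjusted p = 0.0314) for Kif20a and −0.84 (SE 0.15, adjusted p = 0.0436) for Incenp, both from limma.

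Mcm10 is needed to start replication forks and Pold1 is the catalytic subunit of DNA polymerase delta. On the TGR-1 arrays Mcm10 read 7.92, 7.89 and 8.0 without and 8.15, 8.22 and 8.28 with rapamycin, and on the HO15.19 arrays 6.71, 6.92 and 6.86 without and 6.41, 6.10 and 5.89 with rapamycin. Pold1 read 8.59, 8.65 and 8.51, then 8.79, 8.75 and 8.82 in TGR-1 cells, and 7.96, 7.92 and 7.94, then 7.51, 7.2 and 7.19 in HO15.19 cells. For these 2 genes the HO15.19 control arrays already lay below all TGR-1 arrays, and the HO15.19 rapamycin arrays lay lower still. Both fell in HO15.19 (Mcm10 −0.70, Pold1 −0.64), where TGR-1 stood at 0.28 and 0.21 without passing. The differences were −0.98 (SE 0.18, adjusted p = 0.0436) and −0.85 (SE 0.16, adjusted p = 0.0452) in limma.

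Chac1 degrades glutathione and is induced by the transcription factors ATF4 and CHOP under amino acid and endoplasmic reticulum stress. Its signal was 6.19, 5.86 and 6.05 on the TGR-1 control arrays, 6.27, 6.13 and 5.90 with rapamycin, 6.51, 6.71 and 6.83 on the HO15.19 control arrays, and 5.06, 5.51 and 5.78 with rapamycin. The TGR-1 groups overlapped, and HO15.19 cells went from the highest group to the lowest. Chac1 fell in HO15.19 (−1.23) and stood at 0.06 in TGR-1, and its difference of −1.29 (SE 0.23, adjusted p = 0.0436 from limma) was the most negative of all tested probes. Without background correction the difference was −0.71. The spread among its 3 HO15.19 rapamycin arrays was also the widest of the 12 probes (SD 0.37).

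Ccl2, a chemokine that attracts monocytes and an NF-kB target, read 6.3, 6.84 and 6.51 on the TGR-1 control arrays and 7.11, 7.07 and 7.2 with rapamycin, against 8.28, 8.34 and 8.42 and then 7.73, 7.75 and 8.08 in HO15.19 cells. It was higher in HO15.19 cells under either condition, and within each line the 2 conditions did not overlap. It rose in TGR-1 (0.58) and fell in HO15.19 cells (−0.49, difference −1.07, SE 0.19, adjusted p = 0.0436 from limma). Ccl7, a chemokine of the same family, rose in TGR-1 (0.58) but did not pass in HO15.19 (−0.21). Its difference of −0.79 (SE 0.16) did not pass (adjusted p = 0.0587).

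LOC684490 is named only as similar to the bifunctional methylenetetrahydrofolate dehydrogenase and cyclohydrolase of mitochondria, a type of enzyme that handles one-carbon units on folate. It read 9.63, 9.67 and 9.70 and then, with rapamycin, 9.15, 9.21 and 9.21 in TGR-1 cells, against 8.94, 9.27 and 9.0 and then 7.47, 7.44 and 7.63 in HO15.19 cells. It fell in both lines, more deeply in HO15.19 (−1.56) than in TGR-1 (−0.48, difference −1.08, SE 0.16, adjusted p = 0.0130 from limma). A probe named RGD1564040, also described as similar to methylenetetrahydrofolate dehydrogenase, fell in HO15.19 (−1.53), did not pass in TGR-1 (−0.43) and had a difference of −1.10 (SE 0.23, adjusted p = 0.0682 from limma) that missed the threshold. The names do not say whether both probes read the same transcript, so they are not counted as separate genes.

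Among the 3 probes with a positive difference, LOC306428, described as similar to a 70 kDa heat shock protein chain, was detected on every array. It read 9.51, 9.52 and 9.07 and then 9.02, 8.89 and 8.95 with rapamycin in TGR-1 cells, against 8.67, 8.46 and 8.55 and then 9.16, 9.11 and 9.15 in HO15.19 cells. The conditions did not overlap in either line and their order was opposite, with a rise of 0.58 in HO15.19 cells and a value of −0.41 in TGR-1 cells that did not pass (difference 0.99, SE 0.18, adjusted p = 0.0436 from limma). Heat shock proteins of this class are encoded by several near-identical genes, so the probe may read more than 1 of them.

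Kprp, a proline-rich protein of keratinocytes, was not detected on any TGR-1 array, where it read 4.37 to 4.44. On the HO15.19 arrays it read 4.99, 5.17 and 5.60 without and 6.58, 6.57 and 6.55 with rapamycin, a rise of 1.31 with no overlap. The difference of 1.31 (SE 0.18, adjusted p = 0.0105 from limma) therefore sets a change in HO15.19 cells against values under the detection limit, and it was 0.69 without background correction. Of 11 listed keratinocyte genes Kprp was the only one with a named, tested probe. Acsm1, a medium-chain acyl-CoA synthetase, was the reverse case. It fell by 1.44 in TGR-1 cells, from 7.27, 7.15 and 7.37 to 6.01, 5.87 and 5.60, but was detected on only 1 of the 6 HO15.19 arrays, which read 4.90, 5.08 and 4.85 without and 4.54, 4.71 and 4.50 with rapamycin (difference 1.08, SE 0.18, adjusted p = 0.0283 from limma). That difference was 0.68 without background correction.

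The sequence before the start of transcription is printed for 4 of the called genes, 3 of chromosomes and DNA copying and 1 stress gene, to show the motifs counted in the gene lists. The 250 bases upstream of the annotated start are from RefSeq (rat assembly GRCr8) and run 5′ to 3′ on the strand of the gene. They lie at chr4:159677939-159678188 (minus strand) for Ncapd2, chr17:78175137-78175386 (plus strand) for Mcm10, chr1:104172983-104173232 (minus strand) for Pold1 and chr3:126795881-126796130 (plus strand) for Chac1. Capitals mark matches, on either strand, to any of 5 motifs: the CCAAT box (CCAAT), the cell cycle homology region CHR (TTTGAA), an E2F-type site (GGCGGGA), the E-box that c-Myc and Max bind (CACGTG) and a site of the type that ATF4 binds (TGATGCA).
Ncapd2: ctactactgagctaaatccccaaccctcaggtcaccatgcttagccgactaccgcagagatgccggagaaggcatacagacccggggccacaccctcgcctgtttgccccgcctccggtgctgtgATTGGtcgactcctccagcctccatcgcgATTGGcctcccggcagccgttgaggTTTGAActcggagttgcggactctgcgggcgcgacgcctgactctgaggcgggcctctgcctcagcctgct
Mcm10: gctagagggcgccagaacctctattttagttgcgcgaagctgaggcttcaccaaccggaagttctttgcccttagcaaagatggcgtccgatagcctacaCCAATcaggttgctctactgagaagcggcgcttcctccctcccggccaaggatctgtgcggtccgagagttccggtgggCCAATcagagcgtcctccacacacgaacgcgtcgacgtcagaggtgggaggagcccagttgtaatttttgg
Pold1: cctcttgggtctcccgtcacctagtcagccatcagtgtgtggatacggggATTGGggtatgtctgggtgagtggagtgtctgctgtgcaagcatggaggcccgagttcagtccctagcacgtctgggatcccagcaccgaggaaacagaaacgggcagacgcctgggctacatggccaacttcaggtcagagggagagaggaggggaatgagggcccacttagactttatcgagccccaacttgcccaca
Chac1: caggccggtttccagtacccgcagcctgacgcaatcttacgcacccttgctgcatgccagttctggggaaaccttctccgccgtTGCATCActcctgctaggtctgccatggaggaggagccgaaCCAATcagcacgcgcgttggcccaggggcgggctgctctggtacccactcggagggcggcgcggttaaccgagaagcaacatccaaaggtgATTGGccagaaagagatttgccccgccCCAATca

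Ncapd2 held 2 CCAAT boxes and 1 CHR, Mcm10 held 2 CCAAT boxes, Pold1 held 1, and Chac1 held 3 CCAAT boxes and 1 ATF4-type site, with no overlap between motifs. None of the 4 windows held CACGTG or GGCGGGA. Of the 12 called genes 8 had a promoter sequence, and a CCAAT box lay in 7 of these 8, against 34.3% of 27457 promoters of the same length and 39.1% of the 1280 available for named genes tested. No CACGTG lay in the 8, against 5.79% and 9.77%. Among 36 promoters of mitosis genes 80.6% held a CCAAT box and 47.2% a CHR (16% of all promoters). A CCAAT box was also held by 88.9% of 9 promoters of cholesterol and fatty acid synthesis and 60% of 15 of tRNA synthetases. Among 33 of the ATF4 and CHOP targets 27.3% held TGATGCA (2.33% of all promoters). A match is a run of letters and not a measured binding site.

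Genes of mitosis and cytokinesis had the most negative median difference of the lists with at least 5 named, tested members. The lists share some members. Of 82 listed genes 45 had a named, tested probe, and the difference was negative for 44 of the 45, with a median of −0.58 against a median of 0.00 over all tested probes and −0.06 over 1709 named genes. An unadjusted p under 0.05 and a negative difference were found for 39 of the 45, where 5.57% of all tested probes and 20.4% of named genes had them, and 2 (Kif20a and Incenp) were called. In HO15.19 cells 34 of the 45 fell (2.64% of all tested probes did) and in TGR-1 cells 1 fell (the phosphatase Cdc25b, by 0.56), with median changes of −0.53 and 0.01. Names exist only for probes in the study's lists of changed genes, and 42 of these 45 were named in the HO15.19 list alone. The 740 genes named there alone had a median difference of −0.15, so the counts are a description and not independent evidence of direction.

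Within the mitosis group the transcription factor Foxm1, which drives genes of the G2 and M phases, fell in HO15.19 (−0.97) but did not pass in TGR-1 (−0.09, difference −0.88, SE 0.17, adjusted p = 0.0587 from limma). It read 7.45, 7.45 and 7.70 and then 7.51, 7.46 and 7.37 with rapamycin in TGR-1 cells, against 7.87, 7.78 and 7.70 and then 6.85, 7.0 and 6.59 in HO15.19 cells, so that only the last group stood apart. Ube2c, the ubiquitin-conjugating enzyme of the anaphase-promoting complex, had a difference of −0.83 (adjusted p = 0.0739), and Pbk, a mitotic kinase, −0.76 (adjusted p = 0.0587). The kinase Plk1 had a difference of −0.77, the cytokinesis regulators Racgap1 and Ect2 of −0.78 each, and cyclin A2 (Ccna2) of −0.66, and all 4 fell in HO15.19 cells. Aurora A (Aurka) fell in HO15.19 (−0.49) with −0.20 in TGR-1, so its difference was −0.29. These are bulk RNA samples, in which fewer cells in mitosis and less of each mRNA per cell cannot be told apart. The study reports, with data not shown, that both lines resisted growth inhibition by rapamycin in assays with labelled thymidine. It judged this by criteria set in hepatic cells. How that relates to the values here was not tested.

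Averaged over its 45 genes, each centred on its own mean over the 12 arrays, the mitosis group stood at 0.25, 0.25 and 0.27 on the TGR-1 control arrays and 0.26, 0.25 and 0.24 with rapamycin. It stood at 0.05, 0.05 and 0.00 on the HO15.19 control arrays and −0.54, −0.52 and −0.55 with rapamycin. The arrays of a group thus differed by at most a few hundredths, the TGR-1 arrays with and without the drug overlapped, and the HO15.19 rapamycin arrays lay far below the rest. The HO15.19 control arrays also lay below all TGR-1 arrays, but by less.

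**Figure D2:**
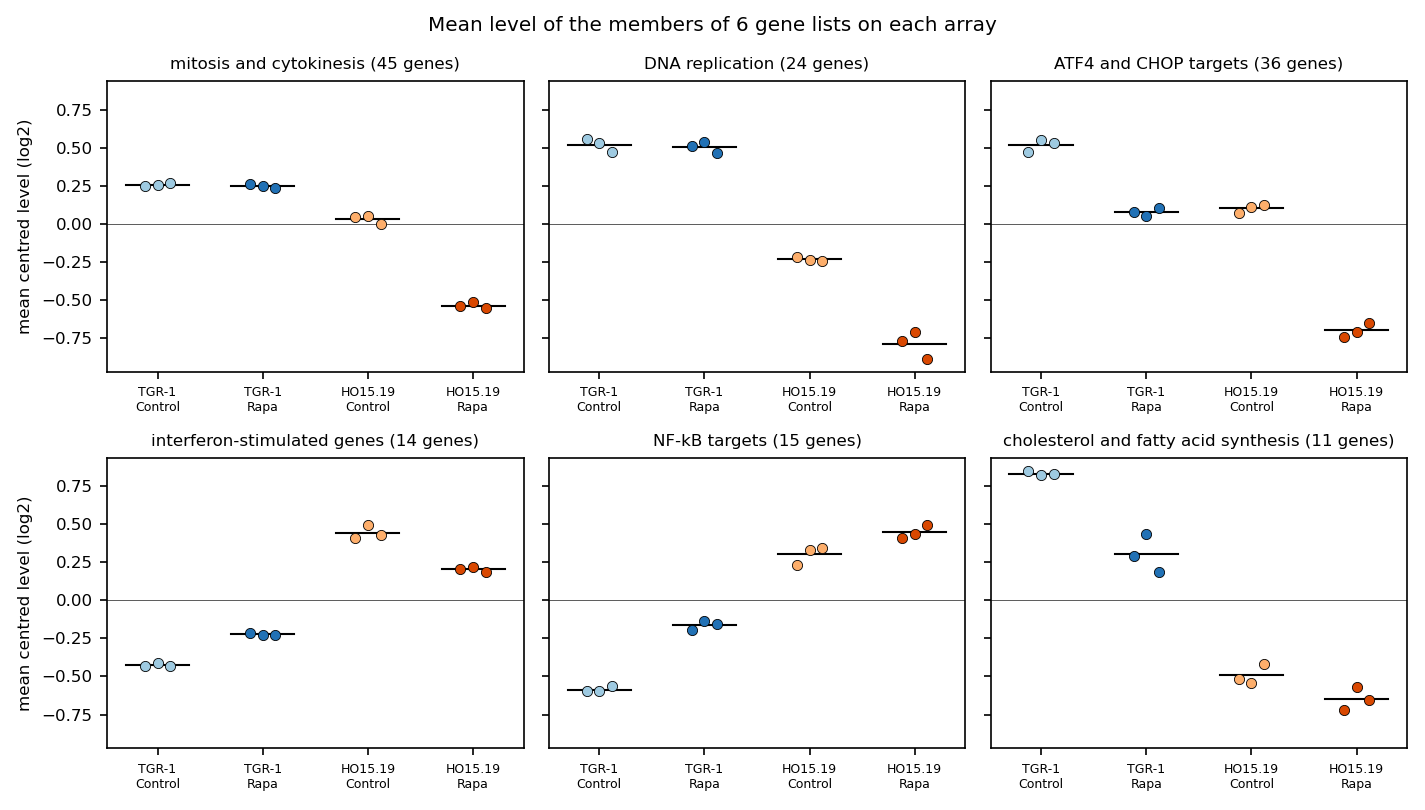
Mean level of the members of 6 gene lists on each array (y axis, log2, each gene centred on its mean over the 12 arrays), with 1 point per array, 3 arrays in each of the 4 groups on the x axis, and a line at the group mean. For mitosis and DNA replication genes the arrays with and without rapamycin overlap in TGR-1 cells and lie lower with it in HO15.19 cells, ATF4 and CHOP targets are lower with it in both lines, and the interferon list moves in opposite directions.

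DNA replication genes followed the same pattern, with the HO15.19 control arrays further below the TGR-1 arrays. Of 57 listed genes 24 had a named, tested probe, 22 of them named in the HO15.19 list alone. The counts that follow are therefore a description and not independent evidence of direction. All 24 had a negative difference, 20 of them with an unadjusted p under 0.05, and the median was −0.52. Of all tested probes 5.57% and of named genes 20.4% had a negative difference with such a p. In HO15.19 cells 17 fell (2.64% of all tested probes did), and in TGR-1 cells 0 passed in either direction. The median changes of the 24 were −0.56 in HO15.19 and 0.00 in TGR-1 cells. Their mean centred level was 0.56, 0.53 and 0.47 on the TGR-1 control arrays, 0.51, 0.54 and 0.46 with rapamycin, −0.22, −0.24 and −0.24 on the HO15.19 control arrays, and −0.77, −0.71 and −0.89 with rapamycin. The HO15.19 control arrays were therefore already below both TGR-1 groups before the drug. After Mcm10 and Pold1, the largest differences were those of Gins1, a subunit of the replicative helicase (−0.85), Pold2, a further subunit of polymerase delta (−0.76), and Mcm7, a subunit of the helicase ring (−0.72, SE 0.15, adjusted p = 0.0739 from limma). The clamp gene Pcna had a difference of −0.30 and Dbf4, the activator of the Cdc7 kinase, of −0.19, and neither had an unadjusted p under 0.05.

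E2f1, a transcription factor that activates replication genes, passed in neither line, with values of 0.39 in TGR-1 and −0.37 in HO15.19 cells, and its difference of −0.76 (SE 0.15) had an adjusted p of 0.0587 in limma. Its TGR-1 arrays read 7.21, 7.37 and 7.39 without and 7.71, 7.80 and 7.64 with rapamycin, and its HO15.19 arrays 7.24, 7.21 and 7.33 without and 6.78, 6.89 and 7.01 with it. The control arrays of the 2 lines overlapped, and the rapamycin arrays lay on opposite sides of them. Of 12 named genes of DNA damage signalling and repair, H2ax was called and 5 others had a negative difference with an unadjusted p under 0.05, among them the end-joining factor Xrcc6 (−0.49) and the nuclease Exo1 (−0.45). The median over the 12 was −0.36, and −0.23 without background correction. Of 5 named condensin and cohesin subunits 4 had a negative difference with an unadjusted p under 0.05, with Ncapg at −0.48, Ncapg2 at −0.38 and Smc2 at −0.36 after Ncapd2. Among named genes 20.4% had one. Of the 12 repair genes 8, and all 5 of these subunits, were named in the HO15.19 list alone. The counts are therefore a description and not independent evidence of direction.

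**Figure D3:**
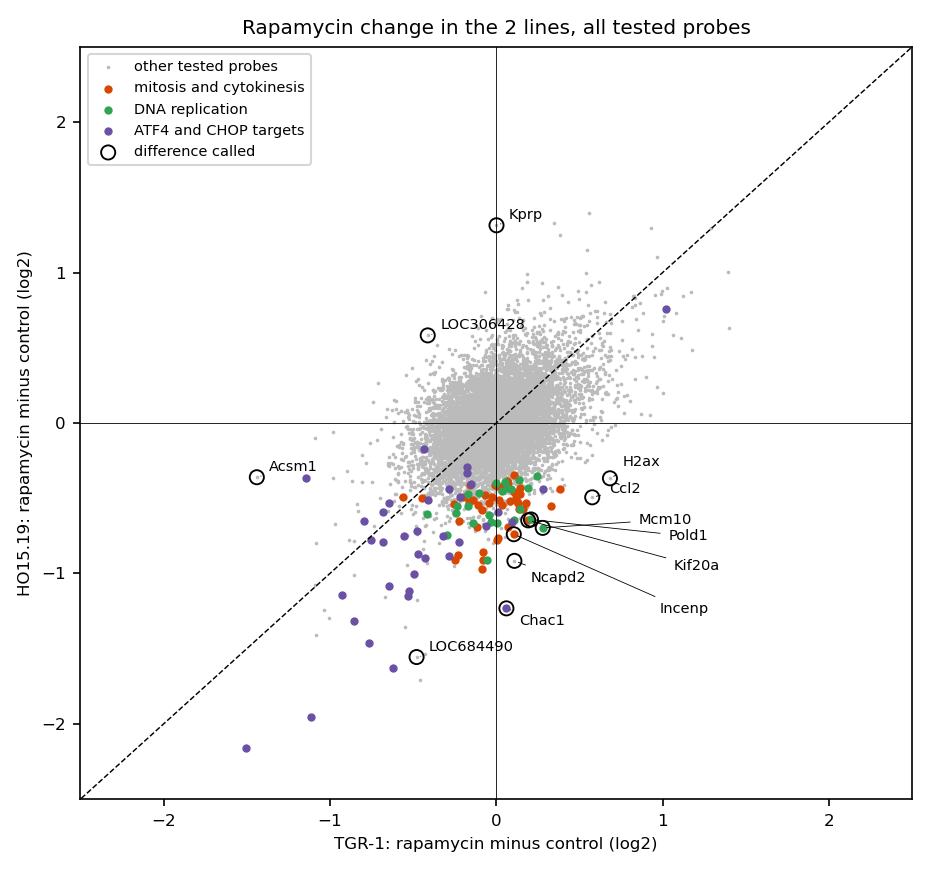
Rapamycin minus control (log2) in TGR-1 cells (x axis) against HO15.19 cells (y axis) for all 10852 tested probes, with members of 3 gene lists in colour and the 12 probes with a called difference circled. Mitosis and DNA replication genes form a band below the dashed line of equal change at TGR-1 values around 0, while ATF4 and CHOP targets run along that line and mostly below it.

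Targets of ATF4 and CHOP, which supply amino acids and charged tRNAs when these run short, were in part lower with rapamycin in both lines. Of 36 named, tested members 18 fell in TGR-1 cells and 28 in HO15.19 cells, with median changes of −0.48 and −0.75. Of all tested probes 1.45% fell in TGR-1 cells and 2.64% in HO15.19 cells. Of the 36, 13 were named in the HO15.19 list alone, 2 in the TGR-1 list alone and 21 in both. The counts are therefore a description and not independent evidence of direction. The difference was negative for 31 of the 36 (median −0.41), with an unadjusted p under 0.05 for 18 of them and 1 called (Chac1), and positive with such a p for 1, the lipoprotein receptor gene Vldlr (0.78). Among named genes 20.4% had a negative and 11.9% a positive difference with such a p. Without background correction the median of the list was −0.19. The mean centred level was 0.47, 0.55 and 0.53 on the TGR-1 control arrays and 0.08, 0.05 and 0.10 with rapamycin, against 0.07, 0.11 and 0.12 and then −0.74, −0.71 and −0.65 in HO15.19 cells. The TGR-1 rapamycin arrays and the HO15.19 control arrays thus overlapped.

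Slc7a5, the transporter of large neutral amino acids, was the first probe outside the threshold. It read 9.72, 10.03 and 9.52 and then 9.22, 9.16 and 9.02 with rapamycin in TGR-1 cells, against 8.84, 9.17 and 9.02 and then 7.42, 7.46 and 7.26 in HO15.19 cells. It fell in both lines (−0.62 in TGR-1, −1.63 in HO15.19), and the difference of −1.0 (SE 0.19) had an adjusted p of 0.0586 in limma. Slc3a2, its heavy chain partner, had a difference of −0.57. Trib3, a pseudokinase induced by CHOP, fell in TGR-1 (−1.11) as in HO15.19 (−1.95, difference −0.84, adjusted p = 0.138). Atf4 itself fell in HO15.19 (−0.69) but did not pass in TGR-1 (−0.06, difference −0.62). Phgdh, the first enzyme of serine synthesis, fell by 1.5 in TGR-1 cells and was under the detection limit on all 3 rapamycin arrays of HO15.19, where it was at least 3.59-fold lower than on the HO15.19 control arrays. Its difference of −0.66 therefore rests on a level under the detection limit, and it was 0.08 without background correction.

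The tRNA synthetases, 11 of 18 of which are on the ATF4 list too, ranged from negative to positive differences. Of the 18 named members 6 had a negative difference with an unadjusted p under 0.05 and 1 a positive one. Over all named genes the shares with such a p were 20.4% and 11.9%. The median of the 18 was −0.22 (−0.09 without HO15.19 rapamycin replicate 1). Cars1 for cysteine fell in TGR-1 (−0.55) as in HO15.19 (−1.35, difference −0.81, SE 0.20, adjusted p = 0.156 from limma, and −0.38 without background correction), and Vars1 for valine had a difference of −0.69. Tars1 for threonine, Eprs1 for glutamate and proline and Nars1 for asparagine fell in both lines. Their differences were −0.03 (SE 0.19), 0.09 (SE 0.17) and −0.11 (SE 0.16), each smaller than its SE.

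Interferon-stimulated genes had opposite median changes in the lines. In TGR-1 cells 4 of 14 named members rose and 1 fell, and in HO15.19 cells 3 fell (2.52%, 1.45% and 2.64% of all tested probes did). Of the 14, 8 were named in the TGR-1 list alone and 3 in the HO15.19 list alone, so most were listed as changed in TGR-1. Among named genes 20.4% had a negative difference with an unadjusted p under 0.05. All 14 had a negative difference, 7 with an unadjusted p under 0.05 and 0 called, and the median was −0.44, made of median changes of 0.34 in TGR-1 and −0.16 in HO15.19 cells. Their mean centred level was −0.43, −0.41 and −0.43 on the TGR-1 control arrays and −0.21, −0.23 and −0.23 with rapamycin, against 0.41, 0.49 and 0.43 and then 0.21, 0.22 and 0.19 in HO15.19 cells. HO15.19 cells were higher under both conditions, and the gap was narrower with rapamycin. Ifi27, an interferon-induced membrane protein, rose in TGR-1 (0.92), from 10.18, 10.41 and 10.39 to 11.30, 11.13 and 11.32, but did not pass in HO15.19 (0.05, difference −0.87, SE 0.19, adjusted p = 0.0773 from limma), and a second Ifi27 probe had a difference of −0.72. Psmb10, a subunit of the immunoproteasome, had a difference of −0.62 and passed in neither line.

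NF-kB targets, genes of inflammation, rose for 8 of 15 named members in TGR-1 cells, while 3 rose and 1 fell in HO15.19 cells. Of all tested probes 2.52% rose in TGR-1 cells, and 2.51% rose and 2.64% fell in HO15.19 cells. Of the 15, 8 were named in the TGR-1 list alone and 3 in the HO15.19 list alone, so most were listed as changed in TGR-1. The median difference was −0.33, and 5 members had a negative difference with an unadjusted p under 0.05 (20.4% of named genes had one). These were Ccl2, Ccl7, the inhibitor Nfkbia (−0.48), the adhesion molecule Icam1 (−0.37) and the NF-kB subunit Nfkb2 (−0.41). Ptgs2, the inducible cyclooxygenase, rose in TGR-1 (1.00) as in HO15.19 (0.88, difference −0.12, SE 0.20). Among 16 immediate early genes, which respond to growth factors within minutes, Egr1 and Fos rose in TGR-1 (0.54 and 0.87) but did not pass in HO15.19 (−0.25 and 0.06). Their differences of −0.79 and −0.80 did not pass (adjusted p = 0.175 and 0.210 from limma), and that of Fos was −0.41 without background correction. Fos was detected on none of the 3 HO15.19 control arrays and on 1 of the 3 HO15.19 rapamycin arrays. In the opposite direction, the phosphatase Dusp6 rose in TGR-1 (0.54) as in HO15.19 (0.99, difference 0.45).

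**Figure D4:**
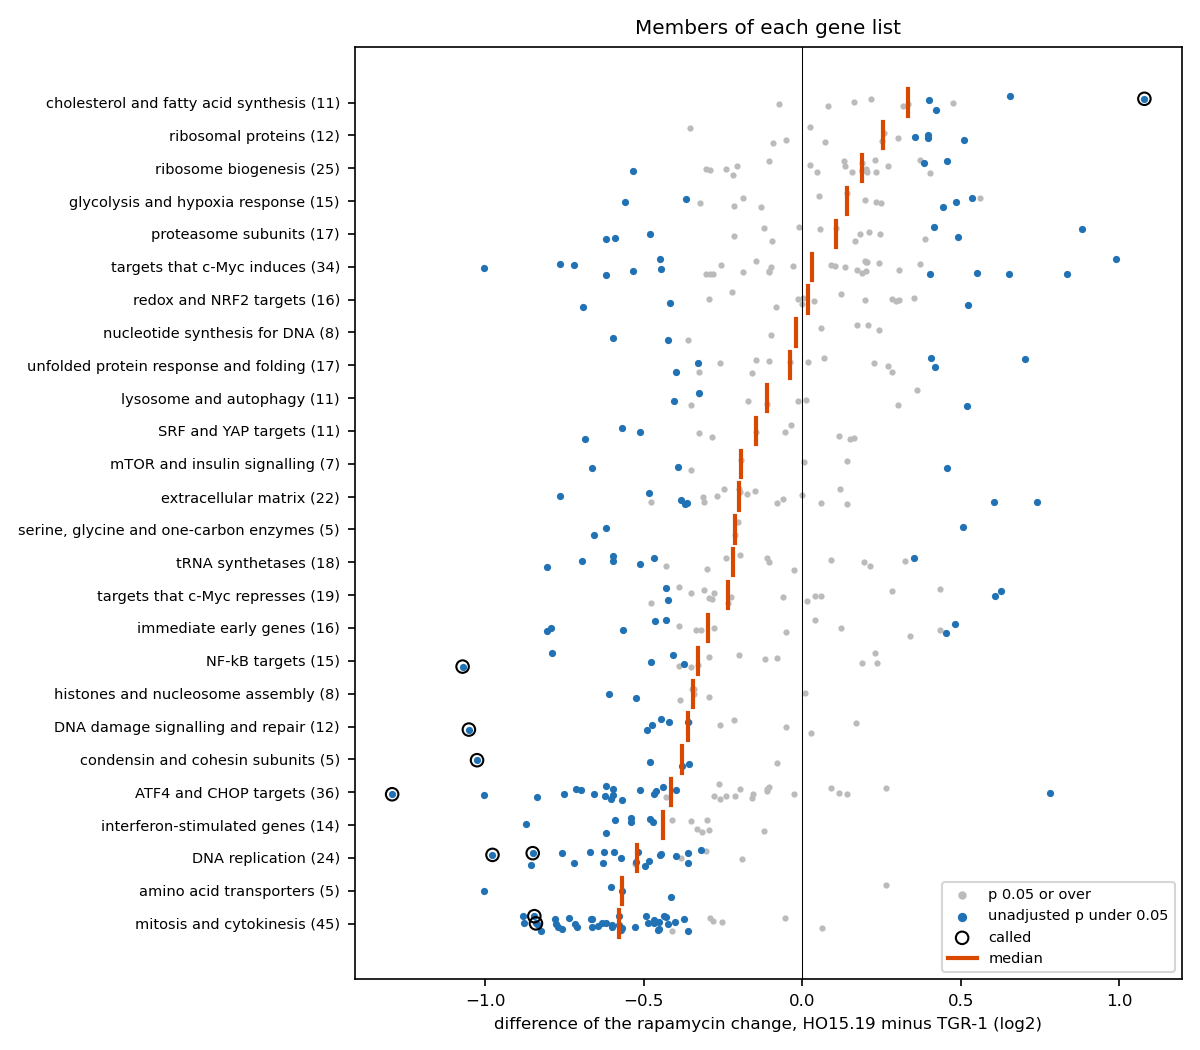
Difference of the rapamycin change, HO15.19 minus TGR-1 (x axis, log2), for the named, tested members of each gene list with at least 5 of them (number in brackets), with blue points for an unadjusted p under 0.05, circles for called probes and a bar at the median. Lists run from mitosis (median −0.58) to cholesterol and fatty acid synthesis (median 0.33).

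Genes of lipid synthesis had the most positive median difference of the lists with at least 5 named, tested members. Of 11 named genes of cholesterol and fatty acid synthesis and acyl-CoA formation 10 had a positive difference (median 0.33), 4 with an unadjusted p under 0.05 (4.17% of all tested probes and 11.9% of named genes had one) and 1 called, Acsm1. Of these 11, 9 were named in the TGR-1 list alone, so they were listed as changed there. The 579 genes named in that list alone had a median difference of 0.03. Sc5d, a desaturase late in cholesterol synthesis, fell in TGR-1 (−0.49) but did not pass in HO15.19 (0.17, difference 0.66, SE 0.16, adjusted p = 0.130 from limma). Its arrays read 8.87, 8.85 and 9.03 and then 8.26, 8.49 and 8.53 with rapamycin in TGR-1 cells, against 7.67, 7.58 and 7.55 and then 7.66, 7.79 and 7.84 in HO15.19 cells. The TGR-1 rapamycin arrays thus lay between the TGR-1 control arrays and the HO15.19 arrays. Apart from Acsm1 and Sc5d no member of this list passed in either line.

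Of 12 named ribosomal protein genes, 9 of them named in the HO15.19 list alone, 9 had a positive difference, 4 of them with an unadjusted p under 0.05 (median 0.25), led by Rps26, which rose in HO15.19 (0.57) but did not pass in TGR-1 (0.05, difference 0.51, adjusted p = 0.279). Of 25 genes of ribosome biogenesis 18 had a positive difference (median 0.19, and 0.12 without TGR-1 control replicate 2), but only 2 with such a p, where 11.9% of named genes had one, and 1 had a negative one, Nop56 (−0.53), a core protein of small nucleolar particles that guide rRNA methylation.

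Listed genes that c-Myc induces showed no common direction. The c-Myc lists used here were compiled for this report. They are not the study's set of c-Myc targets, which came from induction of c-myc in fibroblasts. Of 67 listed targets that c-Myc induces 34 had a named, tested probe, and 17 had a positive and 17 a negative difference. An unadjusted p under 0.05 was found for 5 positive and 7 negative ones, where 11.9% and 20.4% of named genes had them. The median was 0.03, a sign that turned in 5 of the other settings tried. The largest difference of the list in size was negative (Slc7a5, −1.0), while Id2, Odc1 and Tfrc, described next, had positive ones. Id2, which blocks DNA binding by helix-loop-helix factors, fell by 1.09 in TGR-1 cells, from 9.46, 9.35 and 9.33 to 8.30, 8.15 and 8.42, while the HO15.19 arrays read 10.50, 10.37 and 9.97 without and 10.02, 10.24 and 10.29 with rapamycin and overlapped (difference 0.99, SE 0.19, adjusted p = 0.0587 from limma). Odc1, which makes putrescine from ornithine, rose in both lines, by 0.56 in TGR-1 and 1.40 in HO15.19 cells (difference 0.83, SE 0.19, adjusted p = 0.105). The transferrin receptor Tfrc fell in TGR-1 (−0.57) but did not pass in HO15.19 (0.08, difference 0.65, and 0.35 without background correction). Of 19 targets that c-Myc represses 10 rose in TGR-1 and 5 in HO15.19 cells (2.52% and 2.51% of all tested probes did). Of the 19, 7 were named in the TGR-1 list alone, 4 in the HO15.19 list alone and 8 in both. An unadjusted p under 0.05 was found for 2 negative and 2 positive differences, where 20.4% and 11.9% of named genes had them. The difference was negative for 12 of the 19 (median −0.24, and −0.13 with arrays centred on the median of all probes). Cyclin D1 (Ccnd1) and Pgk1 had differences of −0.23 and −0.32, which were −0.13 and −0.07 with that centring.

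Among the other probes with large differences that did not pass, Wnk4, a kinase of ion transport, read 6.78, 6.46 and 6.75 and then 7.10, 6.93 and 7.0 with rapamycin in TGR-1 cells, against 6.95, 7.35 and 7.55 and then 8.56, 8.61 and 8.66 in HO15.19 cells. It rose by 1.33 in HO15.19 cells (difference 0.98, SE 0.20, adjusted p = 0.0587 from limma). Adamts1, a secreted protease of the matrix, rose in HO15.19 (0.63) but did not pass in TGR-1 (−0.11, difference 0.74, adjusted p = 0.0587). Nsun4, an RNA methyltransferase of mitochondria, fell by 0.71 in TGR-1 cells and Psmc5, a proteasome ATPase, by 0.74, with values of 0.27 and 0.14 in HO15.19 cells (differences 0.98 and 0.88, the first 0.54 without background correction). At an adjusted p under 0.1 there were 36 probes (0.332% of those tested), 11 with a positive and 25 with a negative difference, and 1057 probes (9.74%) had an unadjusted p under 0.05.

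Across all tested probes the changes in the 2 lines were positively correlated, with Pearson's r of 0.438 and Spearman's rho of 0.355 over 10852 probes, which are not independent replicates. Of 273 probes that rose in TGR-1 cells 251 also had a positive value in HO15.19 cells, with medians of 0.57 and 0.31, and of 286 that fell in HO15.19 cells 226 also had a negative value in TGR-1 cells, with medians of −0.55 and −0.18. Selection on 1 line favours the larger median there. The difference had an unadjusted p under 0.05 for 55.2% of the probes that fell in HO15.19 cells, 42.0% of the 157 that fell in TGR-1 cells, 35.3% of the 272 that rose in HO15.19 cells and 33.0% of those that rose in TGR-1 cells. The median SE of a difference was 0.187, against 0.133 for the change in a line.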

How the data were processed

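Total RNA of 12 samples was hybridised to Illumina RatRef-12 arrays, and the authors deposited mean bead intensity per probe before normalization, the detection p-value of each probe and a quantile-normalized intensity table from BeadStudio. Deposited lists of changed genes (Partek 6.3) hold fold changes and p-values that were not used. They gave names to 1734 probes, 1551 updated through Entrez numbers, and an unlisted probe is unnamed here. Signals were background-corrected and quantile-normalized with neqc (offset 16) and given on the log2 scale. limma 3.58.1 in R 4.3.3 fitted 1 mean per group over all 12 arrays, with Benjamini-Hochberg adjustment over 10852 probes. The steps were tested on simulated data. A gene with several probes is represented by the brightest. Genes were named where the difference was called, among the 12 largest uncalled differences per direction (unadjusted p of at most 0.01), or among the 4 smallest p-values of a list, besides Myc, Ccnd1 and Pgk1. Other members were chosen after their values were seen. Members and lists were chosen with earlier results of these data known. Alternatives were filters, background corrections, normalizations, variance models, thresholds, replicate blocks and leaving out each array. The number of arrays limits the precision.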

Additional observations from a re-analysis of the deposited data

Results flagged for a closer look

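The rapamycin change differed between the lines, by the test of the difference itself, for 12 probes. The difference, HO15.19 minus TGR-1 on the log2 scale, was −1.05 for H2ax, −1.08 for LOC684490, −1.03 for Ncapd2, −0.84 for Kif20a, −1.29 for Chac1, −1.07 for Ccl2, −0.84 for Incenp, −0.98 for Mcm10 and −0.85 for Pold1. It was 1.31 for Kprp, 1.08 for Acsm1 and 0.99 for LOC306428. For Kprp all TGR-1 arrays, and for Acsm1 5 of the 6 HO15.19 arrays, were under the detection limit.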

How the results depend on the processing

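The number of called differences between the lines, 12 as reported, was 29 over probes detected on all 12 arrays, 26 with no filter, 58 without background correction, 63 in the authors' normalized values, 60 with an offset of 50, 46 and 49 with an intensity trend without and with robust estimation, and 26 with array weights. It was 0 and 1 with arrays centred on the median of all or of the tested probes, 36 at an adjusted p under 0.1 and 336 with no adjustment. An unmoderated test of the difference called 13 (1 positive, 12 negative), of which only 4 were among the 12 as reported. The cause of these shifts was not tested. The labels do not say whether replicate numbers pair the arrays, and the correlations of so few arrays cannot settle it. Same-numbered arrays correlated at −0.23 to 0.28 across lines and at −0.051 to 0.246 within a line, with 3 of 6 pairs over 0.1. Differently numbered arrays within a line correlated at −0.286 to 0.233, with 3 of 12 pairs over 0.1. With the number as a replicate block 11 were called, and 7 with a replicate block within line. For the change in TGR-1 cells, 430 as reported, centring on all probes gave 41 and array weights 786. An unmoderated t-test gave 58, an adjusted p under 0.1 740 and no adjustment 864. For HO15.19 cells, 558 as reported, the same settings but array weights gave 48, 13, 913 and 986, and centring on the tested probes gave 346. The t-test was run on the values processed here. The study tested its own normalized values in Partek, so 58 and 13 are not its counts. With 1 array left out the counts were 0 to 10 for the difference, 198 to 501 for TGR-1 and 295 to 535 for HO15.19 cells.

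For the genes named, signs turned only where the difference was near 0 or rested on undetected arrays. Phgdh was 0.0824 without background correction, 0.0904 in the authors' normalized values and 0.0422 with an offset of 50. Tars1 was 0.00382 without background correction, 0.00611 in the authors' values, 0.0514 and 0.0461 centred on all or tested probes and 0.0137 with cyclic loess. With 1 array left out Tars1 lay between −0.136 and 0.101, Ptgs2 between −0.200 and 0.0227, Cdc25b between −0.0846 and 0.219 and Eprs1 between −0.0221 and 0.197. The median of targets that c-Myc induces, 0.03 as reported, was −0.0296 over probes detected on all 12 arrays and −0.0518 to 0.0828 with 1 array left out. Of the named differences not called, without background correction Ccl7 was −0.520, Ncapg2 −0.241, Psmb8 −0.346 and Dbf4 −0.103, and centred on all probes Pcna was −0.179. The medians of the other 11 lists tried kept their sign.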

Other observations

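Protein folding and degradation genes held a few positive differences. The chaperone Hsp90aa1 fell by 0.66 in TGR-1 cells and had a value of 0.04 in HO15.19 cells (difference 0.70, SE 0.21, adjusted p = 0.240 from limma), and the endoplasmic chaperone Hsp90b1 had a difference of 0.42. Among 17 named proteasome genes 3 had a positive difference with an unadjusted p under 0.05, the regulatory subunits Psmc5, Psmd2 and Psmd6. A negative one was found for 3, Psmb10, Psmb8 and Psme2, which belong to the immunoproteasome and its activator. Over all named genes the shares were 11.9% and 20.4%.

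Matrix genes were mixed. Of 22 named genes 5 had a negative and 2 a positive difference with an unadjusted p under 0.05, close to the shares over all named genes (20.4% and 11.9%). Mfap5, a microfibril protein, rose by 1.40 in TGR-1 and by 0.63 in HO15.19 cells (difference −0.76). Ccn2, a matricellular target of YAP and SRF, rose by 0.55 in TGR-1 cells and had a value of −0.14 in HO15.19 cells (difference −0.68). In glycolysis, the aldolase Aldoa fell by 0.60 in TGR-1 cells with a difference of 0.44, and Tpi1 fell by 0.65 in HO15.19 cells with a difference of −0.37 (−0.14 with arrays centred on the median of all probes).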
